A study of Mus musculus with 10 samples.

Results

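The oligoadenylate synthetase (OAS) family was examined in sorted MC38 tumor cells, as the 8 genes Oas1a, Oas1b, Oas1c, Oas1g, Oas2, Oas3, Oasl1 and Oasl2. They were chosen by symbol among the 53379 genes of a read count table, matched through their Ensembl identifiers. All 8 were found, and all 8 were among the 14337 genes expressed well enough to test. MC38 is a colon carcinoma line of C57BL/6 mice. The libraries came from C57BL/6J mice fed a high-fat diet (5 mice) or a control diet (5 mice), with 1 library of polyadenylated RNA per mouse. All 10 mice carried MC38 tumors whose cells bore the dTomato fluorescent protein, and tumors were taken 21 days after implantation. Cells positive for dTomato and negative for CD45, the common leukocyte surface protein, were sorted. The comparison asks which transcripts of the sorted cells go with the diet of the mouse.

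OAS enzymes bind double-stranded RNA, a sign of viral infection or of misplaced cellular RNA, and then join ATP into short chains linked from the 2′ to the 5′ position, called 2-5A. These chains are a second messenger of the antiviral response. The genes are classical targets of interferons: their receptors signal to a complex of transcription factors that includes STAT2 and IRF9, and this complex binds interferon-stimulated response elements in promoters. Colon tumor cells can make such a response to interferon from neighbouring immune cells or to nucleic acids of their own.

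The promoter sequences are shown because some of them hold letters that match the interferon response element, and because they show how closely some members resemble each other. RefSeq promoters (GRCm38.p6) were present for 6 of the 8 genes, and the 250 bases before the transcription start were searched. The core of the response element was written as GAAANNGAAA and searched on both strands, overlapping matches included. It was found in 4 of the 6 promoters, those of Oas1a, Oas1g, Oas1c and Oas3, against 2.98% of all 32851 promoter windows of the same length. Capitals in the stretches printed here mark matches to GAAANNGAAA, each stretch being read 5′ to 3′ in the direction of its gene's transcription and ending at or before the last base ahead of the start.
Oas1a, chr5:120907526-120907570, minus strand: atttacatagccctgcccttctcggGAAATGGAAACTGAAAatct
Oas1g, chr5:120887614-120887656, minus strand: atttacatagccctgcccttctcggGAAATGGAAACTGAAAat
Oas1c, chr5:120812588-120812653, minus strand: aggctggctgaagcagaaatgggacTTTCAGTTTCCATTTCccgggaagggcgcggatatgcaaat
Oas3, chr5:120777700-120777759, minus strand: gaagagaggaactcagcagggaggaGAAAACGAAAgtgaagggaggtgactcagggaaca
In Oas1a and Oas1g a pair of overlapping matches lay within 20 bases of the start, and the 250 bases upstream of these genes were identical at 82.8% of aligned positions. Oas1c held the same run of 16 bases, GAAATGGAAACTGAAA, on the opposite strand and farther from its start, between positions -114 and -99. That run was taken from these promoters themselves. It occurred in 7 of the 32851 windows, 0.0213%, with the 3 member promoters among the 7, so this percentage is not an independent background. The Oasl1 and Oasl2 windows held no match to GAAANNGAAA, which says only that these letters are not in these windows. A match is a description of letters and not a shown binding site.

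All 8 genes lie on chromosome 5, in 2 clusters (GRCm38, GENCODE M21 positions). Oasl2 (ENSMUSG00000029561.17, 114896936 to 114912234) and Oasl1 (ENSMUSG00000041827.15, 114923240 to 114937915) are neighbours on the plus strand. The other cluster runs from Oas2 (ENSMUSG00000032690.16, 120730333 to 120749853) through Oas3 (ENSMUSG00000032661.9, 120753098 to 120777661), Oas1c (ENSMUSG00000001166.17, 120800194 to 120812514) and Oas1b (ENSMUSG00000029605.16, 120812635 to 120824163) to Oas1g (ENSMUSG00000066861.14, 120876142 to 120887613) and Oas1a (ENSMUSG00000052776.10, 120896256 to 120907521). In this cluster Oas1b is on the plus strand and the others named are on the minus strand. Oas1a and Oas1g are near-copies: 57.6% of the 50-base windows along the longest Oas1a transcript, and 54.7% of those along the longest Oas1g transcript, occurred exactly in another gene, nearly always each other. How the authors' counting treated reads that fit both genes is not given in the sources used here, so the split of counts between Oas1a and Oas1g is uncertain. The shared percentage was 10.8% for Oas1c, shared with other Oas1 genes, 3.19% for Oas1b, 0.471% for Oas3 and 0 for Oas2, Oasl1 and Oasl2. Exons of Oas1c overlapped those of the antisense gene Gm43069 by 227 bases, and exons of Oasl1 those of Gm13822 by 38 bases; without a stated strand setting the reads of such partners cannot be told apart.

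Libraries held between 16513388 and 17154050 counts in high-fat mice and between 17050797 and 18653705 in control mice. The defining epithelial markers were nearly absent: the summed level of Krt8, Krt18, Krt19, Cdh1 and Epcam was between 1.17 and 2.87 CPM in high-fat libraries and between 1.31 and 6.11 CPM in control libraries, where CPM are counts scaled to 1000000 per effective library. A list of 5 fibroblast genes (Dcn, Lum, Pdgfra, Pdgfrb, Postn) summed to between 1095 and 2001 CPM in high-fat libraries and between 1351 and 1910 CPM in control libraries, so the cells are called sorted MC38 cells here by their labels and not by epithelial genes. Of all genes tested 9 passed an adjusted p under 0.05 in edgeR's quasi-likelihood test, 6 of them higher and 3 lower in high-fat mice.

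All 8 OAS genes had a higher mean in tumor cells from high-fat mice than in those from control mice, but none passed the test, against 0.0628% of all genes tested that did in either direction and 0.0418% that did as higher. A positive log2 change was found in 51.4% of all genes tested. The fitted differences of the OAS genes lay between 1.23-fold for Oas1c and 2.07-fold for Oas2. Their median log2 change was 0.64 over the 8 genes, against 0.01 over all 14337 genes. At an unadjusted p under 0.05, 6 of the 8 were higher (Oas1a, Oas1b, Oas2, Oas3, Oasl1 and Oasl2) and none lower, against 5.45% of all genes higher and 6.62% lower at that level. The 8 genes are not independent observations, since most of them followed much the same order of libraries. DESeq2 and limma-voom also called none of the 8, against 0.739% of all genes called higher by DESeq2 and 0.0209% by limma-voom. For every member the values of the diets overlapped, while 1.08% of all genes tested had all 5 high-fat libraries above all 5 control libraries. In every member but Oas1c, all 5 high-fat libraries lay above the control median.

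**Figure D1:**
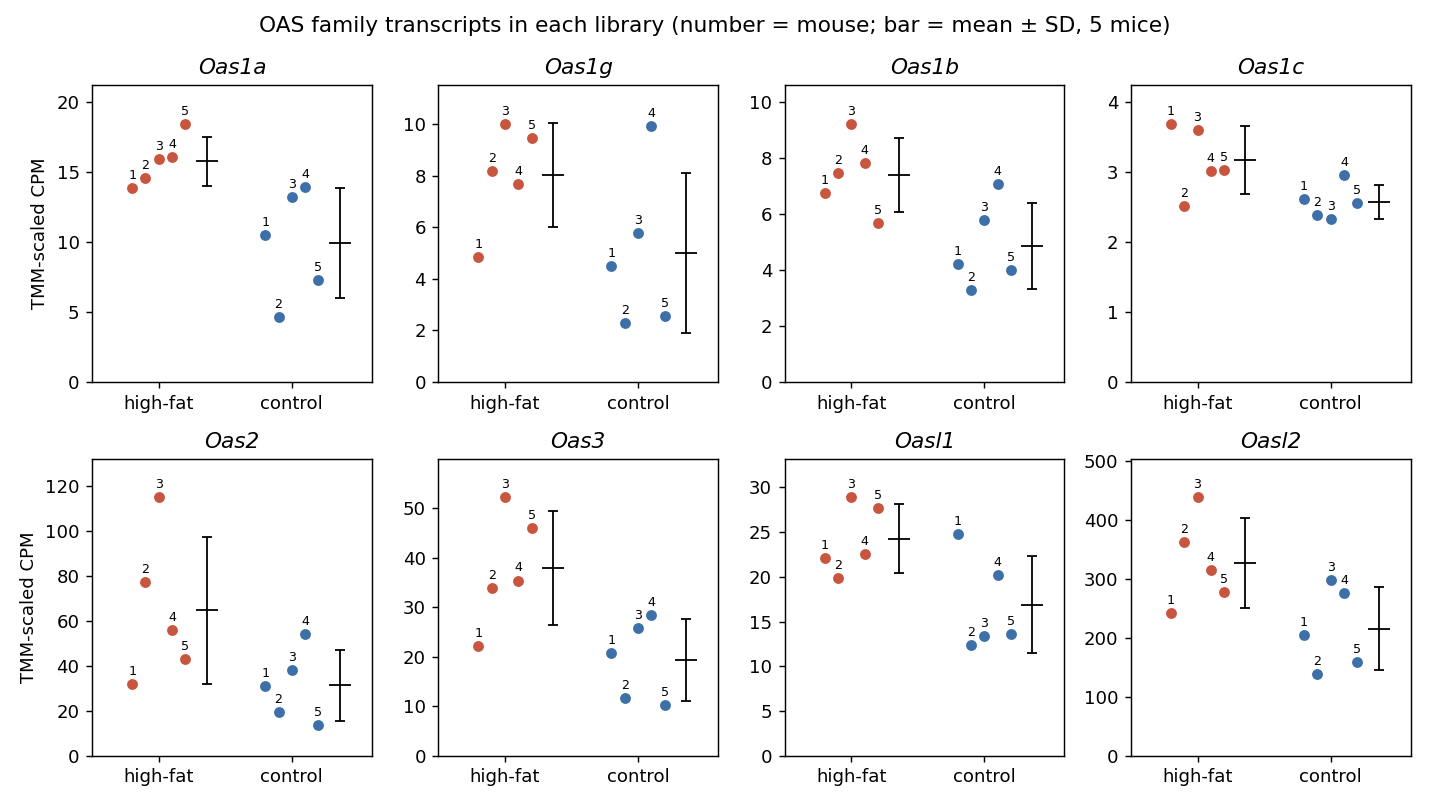
Level of each OAS gene in every library as TMM-scaled CPM (linear axis from 0), with high-fat mice in red on the left and control mice in blue on the right of each panel. Points are libraries numbered by mouse, and bars are the mean ± SD of 5 mice. Control mouse 4 reached 9.93 CPM of Oas1g, inside the high-fat range of 4.82 to 10.01 CPM, and the diets overlap in every panel.

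Oas1a and Oas1g encode the small, catalytically active synthetases of the mouse. Oas1a had 13.8, 14.6, 15.9, 16.0 and 18.4 CPM in high-fat mice 1 to 5, against 10.5, 4.62, 13.2, 13.9 and 7.29 CPM in control mice 1 to 5. Control mouse 4 lay just above high-fat mouse 1 and below the other high-fat mice, and control mice 2 and 5 were lowest. The mean was 15.8 ± 1.76 CPM in high-fat mice and 9.91 ± 3.94 CPM in control mice (SD, n = 5 each). This gave a log2 change of 0.67 (SE 0.25, adjusted p = 0.300 in edgeR). Oas1g had 4.82, 8.19, 10.01, 7.69 and 9.45 CPM in high-fat mice 1 to 5, against 4.51, 2.28, 5.77, 9.93 and 2.56 CPM in control mice 1 to 5. Here control mouse 4 stood above 4 of the 5 high-fat mice, and the log2 change was 0.68 (SE 0.36, edgeR adjusted p = 0.510). Because the genes share reads, their sum was also taken: 23.8 ± 3.49 CPM in high-fat mice and 14.9 ± 6.83 CPM in control mice (SD, n = 5 each). The sum does not depend on how shared reads were divided between the genes. It still depends on whether such reads were dropped or counted for each gene, which is not given. Oas1g made up 33.4% ± 4.80 of this sum in high-fat mice and 32.2% ± 5.81 in control mice (SD, n = 5 each), a difference smaller than the spread between mice.

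Oas1b is the flavivirus resistance gene of the mouse, and C57BL/6 mice, the source of MC38, carry an allele with a premature stop codon. Its transcript was present all the same, at 6.73, 7.47, 9.22, 7.81 and 5.66 CPM in high-fat mice 1 to 5, against 4.21, 3.29, 5.77, 7.08 and 3.99 CPM in control mice 1 to 5. GENCODE M21 annotates the gene as a polymorphic pseudogene. The 3 control mice with the lowest levels lay below every high-fat mouse, and control mice 3 and 4 lay within the high-fat range. The log2 change was 0.60 (SE 0.20, edgeR adjusted p = 0.266).

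Oas1c belongs to the same Oas1 group but is thought to lack synthetase activity. It had 3.69, 2.51, 3.60, 3.02 and 3.03 CPM in high-fat mice 1 to 5, against 2.61, 2.39, 2.33, 2.96 and 2.56 CPM in control mice 1 to 5. The order of the libraries was unlike that of the other members: high-fat mouse 1 was the highest of all 10 and control mouse 3 the lowest. With between 40 and 62 reads per library it was the least abundant member, and its log2 change of 0.30 (SE 0.16, adjusted p = 0.482 in edgeR) was the smallest of the 8. The 4 Oas1 genes outside the member list, Oas1d, Oas1e, Oas1f and Oas1h, had 4, 2, 1 and 8 counts in total and were too low to test. A count of 0 allows up to 3 counts, and that limit covers counting error only. Scaled by each library's total counts without the TMM factor, this is between 0.161 and 0.182 CPM.

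Oas2 and Oas3 encode the larger synthetases, in which the synthetase unit is repeated in tandem; in human cells OAS3 is a main source of 2-5A. Oas2 had 31.9, 77.6, 115.1, 56.0 and 43.1 CPM in high-fat mice 1 to 5, against 30.9, 19.3, 38.4, 54.1 and 13.8 CPM in control mice 1 to 5. High-fat mouse 3 was the highest of all, and high-fat mouse 1 stood below control mice 3 and 4. Oas2 had the largest fitted difference of the members, with means of 64.7 ± 32.9 CPM in high-fat mice and 31.3 ± 16.0 CPM in control mice (SD, n = 5 each) and a fitted log2 change of 1.05 (SE 0.41, adjusted p = 0.339 in edgeR). Within a diet the highest library exceeded the lowest by 3.61-fold in high-fat mice and by 3.91-fold in control mice. The fitted difference between diets was 2.07-fold, but a range over 5 libraries and a difference of group levels are unlike measures.

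Oas3 had 22.2, 33.8, 52.1, 35.4 and 45.9 CPM in high-fat mice 1 to 5, against 20.8, 11.6, 25.8, 28.5 and 10.1 CPM in control mice 1 to 5. All high-fat mice but mouse 1 lay above every control mouse. The means were 37.9 ± 11.6 CPM in high-fat mice and 19.4 ± 8.26 CPM in control mice (SD, n = 5 each), with a log2 change of 0.97 (SE 0.31). Its edgeR adjusted p of 0.255 was the smallest of the members.

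Oasl1 and Oasl2 encode OAS-like proteins that carry ubiquitin-like domains behind the synthetase part. In the mouse OASL1 makes no 2-5A and restrains translation of the interferon regulator Irf7, while OASL2 keeps synthetase activity. Oasl1 had 22.1, 19.9, 28.9, 22.6 and 27.7 CPM in high-fat mice 1 to 5, against 24.8, 12.4, 13.4, 20.2 and 13.6 CPM in control mice 1 to 5. Control mouse 1 was the highest control for Oasl1, and for no other member, and exceeded 3 of the high-fat mice. The log2 change was 0.52 (SE 0.19, edgeR adjusted p = 0.298).

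Oasl2 had 242, 362, 438, 315 and 278 CPM in high-fat mice 1 to 5, against 205, 139, 299, 275 and 160 CPM in control mice 1 to 5. Control mouse 3 lay above high-fat mice 1 and 5, and control mouse 4 above high-fat mouse 1. The means were 327 ± 76.3 CPM in high-fat mice and 215 ± 70.0 CPM in control mice (SD, n = 5 each). The log2 change was 0.60 (SE 0.22, adjusted p = 0.311 in edgeR).

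To compare levels between genes, CPM were divided by the length of the longest protein-coding transcript in kilobases (kb). On this scale Oasl2 led by a wide margin, at 105 ± 24.4 CPM per kb in high-fat mice and 69.0 ± 22.4 CPM per kb in control mice (SD, n = 5 each). Its mean over all 10 libraries was 7.17 times that of Oas2, the next in order, and it was the higher of the pair in 10 of 10 libraries. Oas2 stood at 16.3 ± 8.30 and Oasl1 at 11.1 ± 1.77 CPM per kb in high-fat mice, against 7.91 ± 4.03 for Oas2 and 7.74 ± 2.47 CPM per kb for Oasl1 in control mice (SD, n = 5 each). These neighbours are not separable, since Oas2 was the higher in 5 of 10 libraries. Oas1a and Oas3 followed, with Oas1a higher in 8 of 10 libraries, and then Oas1b and Oas1g, with Oas1b higher in 6 of 10. The ranks of Oas1a and Oas1g are uncertain, since full lengths were used and the treatment of their shared reads is not given. Oas1c was lowest of the 8, at 1.38 ± 0.212 CPM per kb in high-fat mice and 1.12 ± 0.107 CPM per kb in control mice (SD, n = 5 each). The order was the same when all annotated exon bases of each gene were used as its length, but the margin of Oasl2 was smaller, with means over the 10 libraries of 42.6 CPM per kb for Oasl2 and 10.8 CPM per kb for Oas2.

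**Figure D2:**
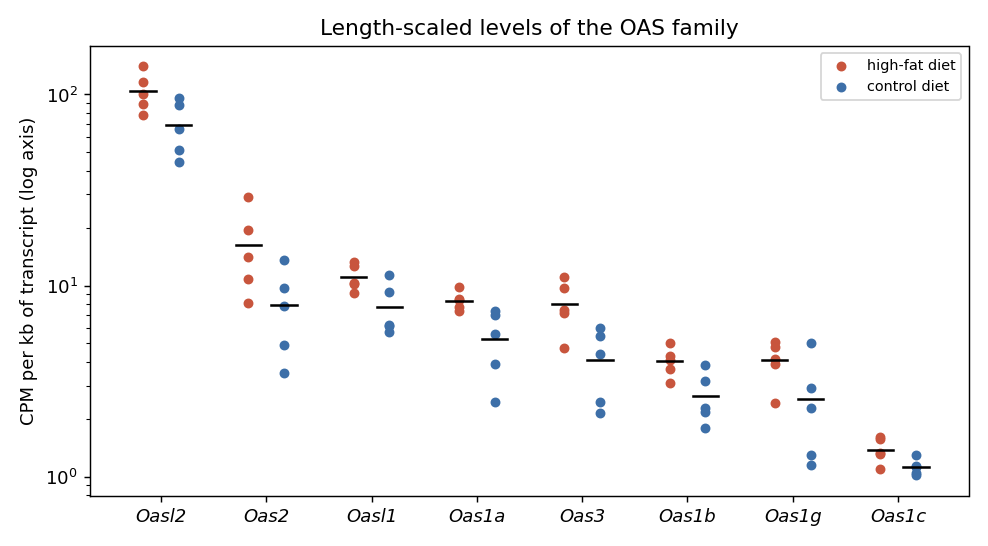
Length-scaled level (CPM per kb of the longest protein-coding transcript, log axis) of the 8 OAS genes, ordered by the mean of all 10 libraries. Points are libraries, red for the high-fat diet on the left of each pair and blue for the control diet on the right, and lines are group means. The levels of Oas1a and Oas1g depend on the unknown treatment of their shared reads. Oasl2 lies apart from the rest, with means of 105 CPM per kb in high-fat mice and 69.0 CPM per kb in control mice, and Oas1c is at the bottom with means of 1.38 CPM per kb in high-fat mice and 1.12 CPM per kb in control mice.

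Summed over the 8 genes on the length-scaled level, Oasl2 supplied 66.3% ± 2.13 of the OAS transcripts in high-fat mice and 69.0% ± 3.51 in control mice (SD, n = 5 each). Oas2 supplied 9.85% ± 2.75 in high-fat mice and 7.56% ± 1.86 in control mice, and Oas3 5.07% ± 1.12 in high-fat mice and 3.98% ± 0.597 in control mice (SD, n = 5 each). For Oasl2 and Oas2 the difference between diets was no larger than the wider of the SDs within a diet, and for Oas3 it was slightly smaller than that SD. The sum includes Oas1a and Oas1g, so the unknown treatment of their shared reads bears on these shares too. The shares also rest on the length chosen for each gene. With all annotated exon bases as the length, the mean of Oasl2 over the 10 libraries was 42.6 CPM per kb, against 86.9 on the coding transcript. For Oas2 these means were 10.8 and 12.1 CPM per kb, so the share of Oasl2 would be smaller on exon lengths.

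Of 4 other genes of the 2-5A pathway list, 2 had positive changes (Adar and Akap7) and 2 negative (Abce1 and Pde12). None passed edgeR's test, none had an unadjusted p under 0.05, and neither DESeq2 nor limma-voom called any of them. Adar, whose enzyme edits double-stranded RNA and so keeps it from the OAS sensors, was at 93.5 ± 14.6 CPM in high-fat mice and 80.6 ± 7.86 CPM in control mice (SD, n = 5 each), and its log2 change was 0.21 (SE 0.11, adjusted p = 0.465 in edgeR). Its exons overlap Chrnb2 on the opposite strand by 1365 bases. Abce1, needed for ribosome recycling, was at 232 ± 21.8 CPM in high-fat mice and 265 ± 36.1 CPM in control mice (SD, n = 5 each), and its log2 change was -0.19 (SE 0.10, edgeR adjusted p = 0.487). Pde12, a phosphodiesterase that degrades 2-5A, had a log2 change of -0.15 (SE 0.10), and Akap7, an anchoring protein with such an activity, one of 0.00 (SE 0.11).

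**Figure D3:**
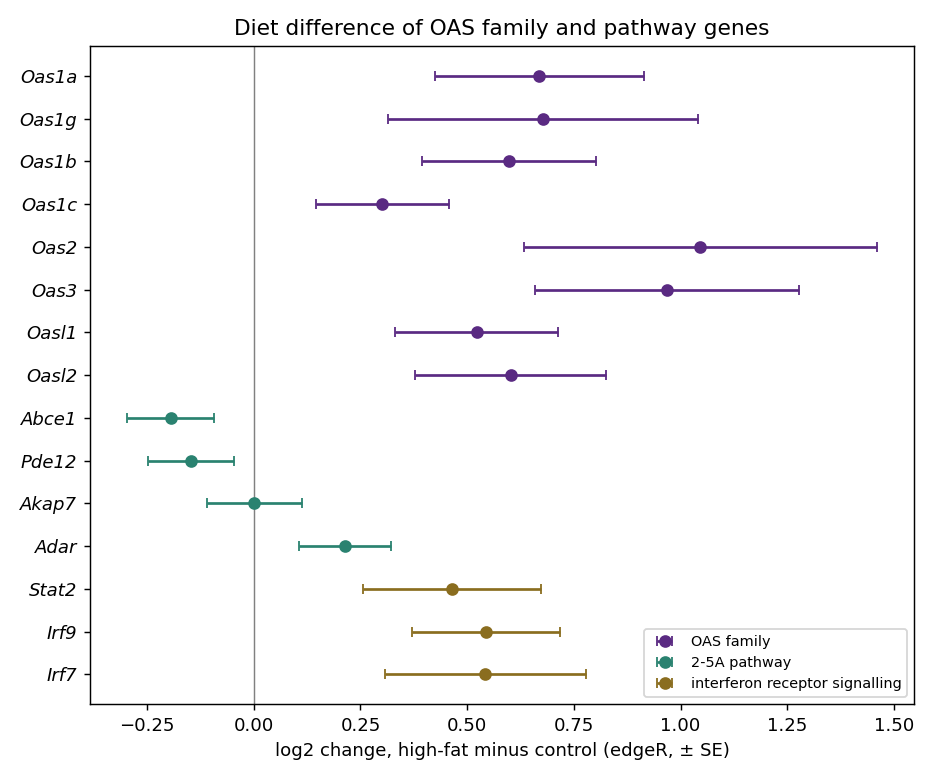
Fitted log2 change of each gene, high-fat minus control, with its standard error from edgeR. Points are the 8 OAS genes (purple), 4 genes of the 2-5A pathway list (green) and 3 interferon signalling genes (brown), and the grey line marks no difference. The brown genes, Stat2, Irf9 and Irf7, were picked from a list of 15 with a median log2 change of 0.18 and 5 negative changes. All 8 OAS genes lie to the right of the line, from 0.30 for Oas1c to 1.05 for Oas2, while Abce1 and Pde12 lie to its left, and no gene shown passed the test.

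A list of 8 other genes covers the sensing of double-stranded or foreign nucleic acid, the adaptor Mavs included. Of these, 7 had positive changes, against 51.4% of all genes, with a median log2 change of 0.28. On this list 3 genes had an unadjusted p under 0.05 in edgeR's test, all higher, against 5.45% of all genes higher at that level. Zbp1, a sensor that can trigger necroptosis, was at 292 ± 31.7 CPM in high-fat mice and 195 ± 36.7 CPM in control mice (SD, n = 5 each). Its diets did not overlap, and 1.08% of all genes tested likewise had all 5 high-fat libraries above all 5 control libraries. Dhx58, a regulator of the RIG-I pathway, had a log2 change of 0.65 (SE 0.23). Mavs, the adaptor on which RIG-I and MDA5 converge, had a log2 change of -0.02 (SE 0.08), and Eif2ak2, which encodes the kinase PKR, one of 0.25 (SE 0.14). No gene of this list passed edgeR's test over all genes. DESeq2 called Zbp1 as higher, against 0.739% of all genes called higher by that tool.

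Of 15 genes of interferon receptor signalling, 10 had positive changes, against 51.4% of all genes, and 5 negative ones, with a median log2 change of 0.18. In edgeR's test 8 had an unadjusted p under 0.05, all higher, against 5.45% of all genes higher at that level. None of the 15 passed over all genes. Stat2 and Irf9, which encode parts of the complex that binds the response element, had positive changes. Stat2 stood at 171 ± 31.3 CPM in high-fat mice and 124 ± 39.7 CPM in control mice, and Irf9 at 66.7 ± 5.84 CPM in high-fat mice and 45.7 ± 13.6 CPM in control mice (SD, n = 5 each). For Irf9 the diets nearly met, with a lowest value of 59.80 CPM in high-fat mice and a highest of 59.79 CPM in control mice. The receptor genes Ifnar1, Ifnar2 and Ifngr2 had changes between -0.09 and -0.04, and Ifngr1 one of 0.25 (SE 0.09).

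In 15 other interferon-induced effector genes, 14 had positive changes, against 51.4% of all genes, with a median log2 change of 0.57. Of these effectors 12 had an unadjusted p under 0.05 in edgeR's test, all higher, against 5.45% of all genes higher at that level. None passed edgeR's test over all genes, and DESeq2 called Mx2, Herc6, Ifit1, Xaf1 and Bst2 as higher, against 0.739% of all genes called higher by that tool. The range of the list, from -0.02 for Isg20 to 0.95 for Mx2, covers that of the OAS genes except Oas2 and Oas3. Whether the OAS genes differ from this list was not tested.

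The 5 genes outside the family whose log2 CPM followed the mean of the 8 members most closely over the 10 libraries were Phtf1os (Pearson r = 0.983), Trim30a (r = 0.983), Dhx58 (r = 0.973), Irf7 (r = 0.973) and Xaf1 (r = 0.964). These values cover libraries of both diets, so the difference between diets enters them, and no test was made of them. Within a diet, r for these genes was between 0.867 and 0.996 in high-fat mice and between 0.932 and 0.994 in control mice. Trim30a was at 51.1 ± 7.83 CPM in high-fat mice and 36.0 ± 10.4 CPM in control mice (SD, n = 5 each). Phtf1os, annotated as an antisense gene, was at 1.29 ± 0.467 CPM in high-fat mice and 0.615 ± 0.395 CPM in control mice (SD, n = 5 each). None of the 5 passed edgeR's test. Within the family, the correlation of a member with the mean of the other 7 was between 0.901 and 0.962 for 6 genes, 0.751 for Oasl1 and 0.564 for Oas1c.

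The order of the libraries was much alike for most members. High-fat mouse 3 was the highest of all 10 libraries for 6 of the 8 genes, and control mouse 2 was the lowest for 5. Control mouse 4 was the highest control for 6 genes. On the mean of log2 CPM over the 8 genes, high-fat mice 1 to 5 stood at 4.09, 4.43, 4.83, 4.42 and 4.44, and control mice 1 to 5 at 3.86, 3.15, 4.01, 4.33 and 3.25. High-fat mouse 1 thus lay below control mouse 4, and control mice 2 and 5 lay well below the rest.

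Transcripts of T and NK cell genes were detected despite the CD45-negative gate, and within the control diet their level followed this order. The pan-leukocyte and macrophage levels given below did so too. The summed level of 10 T and NK cell genes was 2.44, 15.2, 16.2, 7.04 and 2.27 CPM in high-fat mice 1 to 5, against 3.62, 0.796, 12.2, 26.0 and 1.08 CPM in control mice 1 to 5. Control mice 4 and 3 were the highest controls on both this sum and the OAS mean, and mice 2 and 5 the lowest on both. Among high-fat mice, mouse 3 was highest on both, while mouse 5 had the lowest T and NK sum and the second highest OAS mean. Cd3e, a defining T cell gene, had between 0 and 5 counts in high-fat libraries and between 0 and 12 in control libraries. Of the 10 genes 3 were expressed well enough to test, with 2 positive changes and 1 negative, and none passed.

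Pan-leukocyte genes had lower, not higher, means in high-fat mice. All 8 had negative changes, none of which passed, and their sum was between 15.4 and 53.2 CPM in high-fat libraries and between 18.9 and 191 CPM in control libraries, highest in control mice 4 and 3. Likewise all 10 macrophage genes had negative changes, none of which passed, and summed to between 29.5 and 62.5 CPM in high-fat libraries and between 59.5 and 397 CPM in control libraries. From highest to lowest, both sums ranked the control mice 4, 3, 1, 5 and 2, as did the OAS mean and the T and NK sum. Defining markers were present in every library, Ptprc (CD45 itself) with between 12 and 143 counts in high-fat libraries and between 25 and 451 in control libraries. The part of these cells in the OAS levels was not tested, and in sorted bulk RNA fewer cells of a type and less RNA per cell cannot be told apart.

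**Figure D4:**
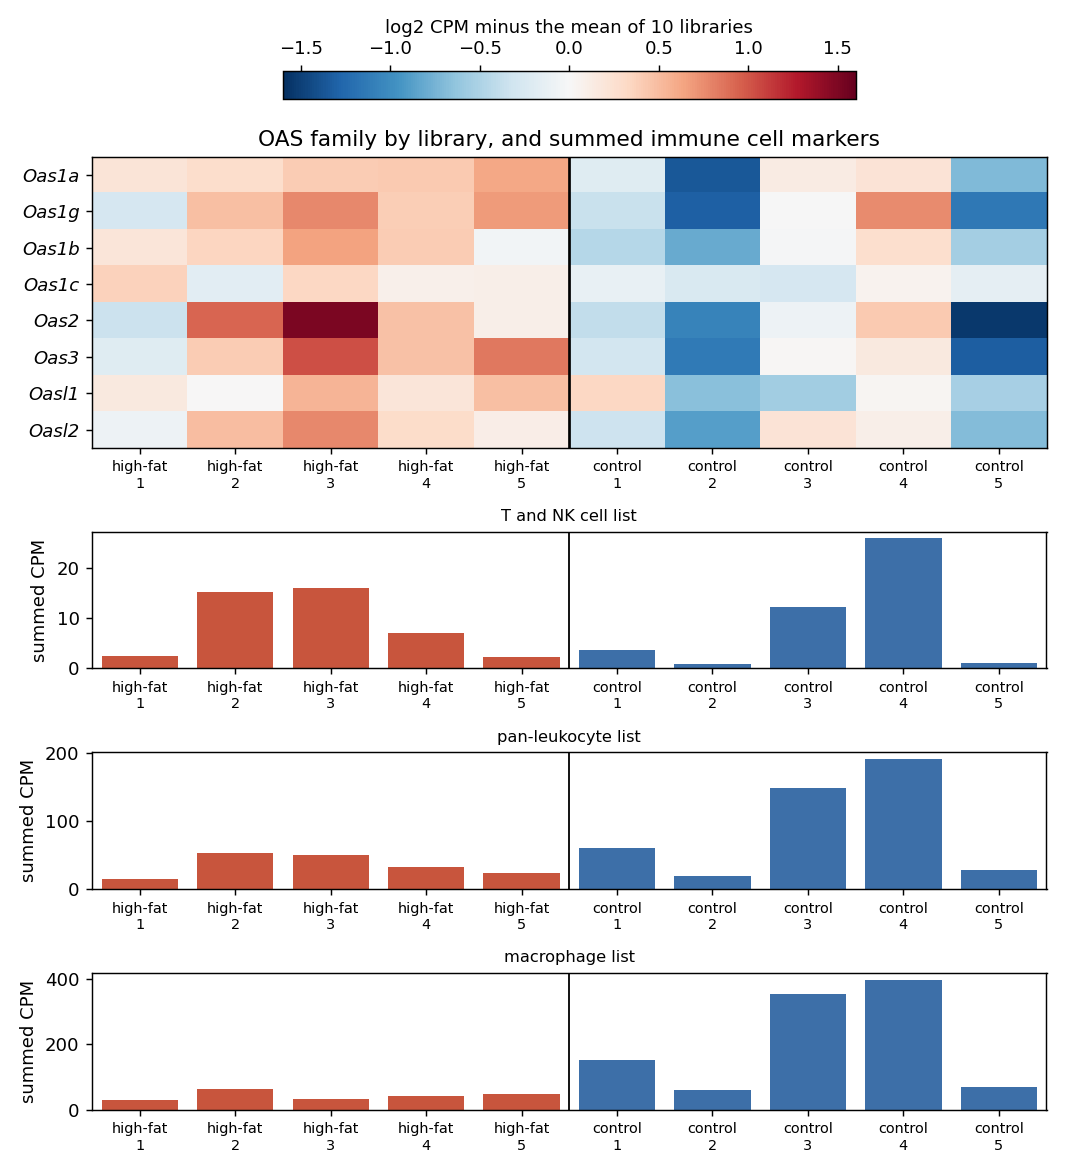
Top, log2 CPM of each OAS gene in each library minus the gene's mean over the 10 libraries, red above and blue below that mean, with high-fat mice left of the line and control mice right of it. Lower panels, summed CPM of the T and NK cell, pan-leukocyte and macrophage lists in the same libraries (bars from 0, red for high-fat and blue for control). Control mice 3 and 4 are highest of the controls in all 3 lower panels, and control mice 2 and 5 are blue for every OAS gene.

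When the mean log2 CPM of the pan-leukocyte genes entered the fit as a covariate, 6 of the 8 OAS genes passed edgeR's test as higher, all but Oas1c and Oasl1, against 1.96% of all genes called higher in that fit. Their log2 changes then ran from 0.89 for Oas1b to 1.61 for Oas2. Without control mice 3 and 4 together, 5 passed as higher (Oas1a, Oas1b, Oas1g, Oas3 and Oasl2), against 0.823% of all genes. Leaving these controls out widens the difference in the OAS mean by construction, since they had the highest OAS means and the highest leukocyte levels of their diet. It did not widen that of Oasl1, whose log2 change was 0.522 in the reported fit and 0.518 without them. Neither count is independent support. With sample quality weights in limma-voom, 1 member, Oas1b, passed (adjusted p = 0.0279), against 2.41% of all genes called higher.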

How the data were processed

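RNA was extracted from the sorted cells and polyadenylated transcripts were sequenced with a NEBNext Ultra kit, per the labels' protocols. The authors deposited whole-number, unnormalized counts of reads for each gene, in a table with a column for every mouse. Software listed, without roles, in the submitters' processing notes was BWA 0.7.12, cutadapt 1.15, DESeq2 1.24.0 and FastQC 0.11.5, with the builds GRCm38 and mm10. The sources used here do not give the counting program, annotation, strand setting or treatment of multiply placed reads, which bear most on Oas1a and Oas1g.

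Of 53379 gene identifiers, 53274 matched GENCODE M21 with the version ignored. All genes were fitted together in edgeR 4.0.16 (R 4.3.3): TMM normalization, the filterByExpr filter, robust quasi-likelihood fits on diet alone, two-sided tests of the high-fat coefficient against control, and p-values adjusted by Benjamini-Hochberg over 14337 genes at a threshold of 0.05. The genes tested held at least 99.8% of each library's counts. Standard errors are the absolute log2 change divided by the square root of F. CPM are TMM-scaled, and log2 CPM use a prior count of 2. Intervals of counting error apply to reads without molecular identifiers. Pairs of libraries within a diet differed by a chi-square of at least 7.67 per degree of freedom, so all 10 were kept as replicates. The fits were tested on simulated data.

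Alternatives were size factors of DESeq2 (1.42.0), no filter, DESeq2, limma-voom (limma 3.58.1), covariates, a replicate block and libraries left out; sample quality weights were added after the data were seen. Members, lists and tests were chosen with earlier results of these data known. All 8 members are named, as are list genes past the threshold and the 5 genes most correlated with the members' mean. Promoters were compared with Biopython 1.88. Libraries came from separate mice, per the labels. Some genes of these pathways are not reported here, although the counts over the lists include them.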

Additional observations from a re-analysis of the deposited data

Results flagged for a closer look

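In 102 groups of 5 libraries examined, 2 held a library far from the others, and chance flags about 5% of groups. Ifit2 was at 82.5 CPM in high-fat mouse 1, while the next lowest high-fat mouse was at 129 CPM. Ifnar1 was at 90.9 CPM in control mouse 3, while the next lowest control mouse was at 102 CPM. No OAS gene had such a library.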

How the results depend on the processing

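Under all 19 alternatives each of the 8 OAS genes kept a positive log2 change. The count of OAS genes called, 0 in the reported fit, was 1 with sample quality weights, 6 with the mean log2 CPM of the pan-leukocyte genes as covariate and 5 without control mice 3 and 4 together, and it was 0 in every other setting, including each of the 10 fits that left out a single library. With library size as a covariate no OAS gene had an unadjusted p under 0.05. Of the 43 pathway genes tested, 0 were called in the reported fit, 3 with no expression filter, 6 with DESeq2, 16 with sample quality weights, 28 with the leukocyte covariate and 18 without control mice 3 and 4, all higher, and 0 with any single library left out. Over all genes, 9 in the reported fit, the count was 53 with no filter, 316 with DESeq2, 5 with limma-voom, 740 with sample quality weights, 0 with library size as a covariate (817 at an unadjusted p under 0.05), 530 with the leukocyte covariate, 276 without control mice 3 and 4, and between 1 and 27 with single libraries left out. The cause was not tested. Called genes higher on the high-fat diet were 6 of 9 in the reported fit, but 106 of 316 with DESeq2 and 120 of 276 without control mice 3 and 4. The mouse numbers of the titles are shared between diets but belong to different mice; same-numbered libraries deviated together with correlations between -0.36 and 0.333, and 1 of 5 high-fat and 1 of 5 control libraries correlated best with its own number. With the replicate block 16 genes, 0 OAS genes and 0 pathway genes were called. Oas1c, Oas1b and Oas1g rest on few reads, which limits their precision. With a single library left out, the log2 change of Oas1g, 0.68 in the reported fit, was 1.09 without control mouse 4, and that of Oas2, 1.05 in the reported fit, was 0.74 without high-fat mouse 3 and 1.34 without control mouse 4.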

Other observations

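Outside the family, the run of 16 bases that the Oas1a, Oas1g and Oas1c promoters share was found in the promoters of Apol9a and Apol9b, near-copies that encode apolipoprotein L proteins on chromosome 15; these genes are named after the search was seen. Apol9a was at 63.2 ± 12.8 CPM in high-fat mice and 45.3 ± 7.45 CPM in control mice (SD, n = 5 each). The log2 change was 0.48 (SE 0.14, adjusted p = 0.210 in edgeR). Apol9b was at 49.5 ± 10.9 CPM in high-fat mice and 39.4 ± 3.07 CPM in control mice (SD, n = 5 each). The log2 change was 0.33 (SE 0.13, adjusted p = 0.308 in edgeR). The split of reads between these near-copies is uncertain.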
